A study of Mus musculus with 2 samples.

Results

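The mitochondrial ribosomal protein genes were examined in mouse myeloid-derived suppressor cells (MDSCs), immature myeloid cells of neutrophil and monocyte type that accumulate in tumour-bearing hosts and can suppress T cells. The genes were taken as the protein-coding rows of the deposited table whose symbol starts with Mrps or Mrpl followed by a digit. This gave 78 of 55401 gene rows (21807 of them protein-coding), 29 with Mrps symbols, named for the small subunit, and 49 with Mrpl symbols, named for the large subunit. The rule itself uses no measured value, although the gene family was picked with earlier results of these data known. RNA was sequenced after poly(A) selection from 2 libraries, 1 of each genotype. The control genotype was Mettl3fl/fl, in which Mettl3 is flanked by loxP sites and no Cre is present. The other was LysM-cre, Mettl3fl/fl, the same alleles together with Cre at the lysozyme 2 locus, which is active in myeloid cells. Mettl3 encodes the enzyme that writes N6-methyladenosine on messenger RNA. Mice of both genotypes were C57BL/6, 8 weeks old and bore MC38 tumours, a mouse colon carcinoma line, although one field of the LysM-cre sample reads MC39. After isolation on magnetic beads the cells were kept with MC38 cells for 24 h. The number of mice behind each library is not given in the labels.

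The mitochondrial ribosome sits in the mitochondrial matrix and translates the few messenger RNAs of the mitochondrial chromosome, all of which encode subunits of the respiratory chain and ATP synthase. Its 2 RNAs come from the mitochondrial chromosome, whereas its proteins are encoded in the nucleus, made in the cytosol and imported. A part of these proteins descends from bacterial ribosomal proteins, and another part is found only in mitochondria. Structures place the protein of Mrps30 and that of Mrps18a in the large subunit despite their symbols. The product of Mrps36 is now known as a subunit of the 2-oxoglutarate dehydrogenase complex and not of the ribosome.

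Total counts were 59506878 in the control and 59393864 in the LysM-cre-labelled library. Mettl3 itself stood at 4.16 and 3.92 FPKM (the deposited values, fragments scaled for gene length and depth), and its counts per library total (CPM) had a ratio of 0.945 (exact 95% interval 0.876 to 1.02). The targeted gene was thus not lower beyond counting error, how much of its value came from the floxed exons is unknown, so that sample is called the LysM-cre-labelled library. The defining markers of the labelled cells were present in both libraries, with 10 of 10 MDSC and neutrophil markers at 31.3 FPKM or more. These markers summed to 9624 FPKM in the control and 8647 in the LysM-cre-labelled library, and 7 of 10 were lower. Markers of other cells also differed. Summed levels were 1175 and 1288 FPKM for 6 macrophage markers (6 higher), 984 and 1379 for 6 erythroid markers (6 higher), 666 and 879 for 6 eosinophil markers (6 higher) and 3290 and 2087 for 7 B and plasma cell markers (6 lower). The last sum was set by Ighm, the heavy chain of IgM (2848 and 1360 FPKM). Without it the other 6 summed to 441 and 727 FPKM, where Jchain, the joining chain of secreted IgM and IgA, had 255 and 555 FPKM and 5 markers were lower. Ear2 (572 and 728 FPKM) held most of the eosinophil sum and C1qa (623 and 655) the largest part of the macrophage sum. Some lower markers differed more than these sums, with CPM ratios of 5.55 for Epx, 2.53 for Prg2 and 2.93 for Marco. The 6 monocyte markers (742 and 768) and 6 T and NK cell markers (226 and 241) were mixed, with 3 higher and 3 lower each. The 6 epithelial markers that tumour cells could carry summed to 3.98 and 4.19 FPKM, with Krt19 at 0 counts in both libraries. The part of these differences in the results below was not tested, and in RNA of whole samples fewer cells of a type and less RNA per cell cannot be told apart.

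With 1 library per genotype there is no spread between replicates, no test was possible and no p-value is given. Intervals cover counting error only and treat each count as independent. The 2 reads of a fragment and its PCR copies come from 1 molecule, so where these were counted apart the intervals are too narrow. Differences are given as the log2 ratio of FPKM + 1 in the LysM-cre-labelled library over FPKM + 1 in the control, a scale that understates differences of low genes.

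All 78 genes were expressed, and most stood slightly higher in the LysM-cre-labelled library. None had a mean under 1 FPKM, the minimum used for the background. The log2 ratio was above 0 for 52 genes and below 0 for 26, against 50.7% above and 49.3% below 0 among the 10250 protein-coding genes at or above the same minimum. Their median log2 ratio was 0.07, beside 0.00 for those protein-coding genes, and the quartiles of the members were −0.03 and 0.18. Summed, the 78 genes made up 0.155% of the control counts and 0.162% of those in the LysM-cre-labelled library, a CPM ratio of 1.05 (95% interval 1.04 to 1.06). A difference of 1.2-fold or more in FPKM + 1 was found for 8 genes in the higher direction (background 7.84%) and for 2 in the lower (background 6.44%). As shares, these were 10.3% and 2.56% of the members, the first near its background and the second below it. The counting interval of the CPM ratio lay wholly above 1 for 31 genes (39.7% of members, background 30.9%) and wholly below 1 for 11 (14.1%, background 30.3%). The remaining 36 genes had an interval that spanned 1. No member reached 2-fold in FPKM + 1 (background 0.576% higher and 0.488% lower).

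**Figure D1:**
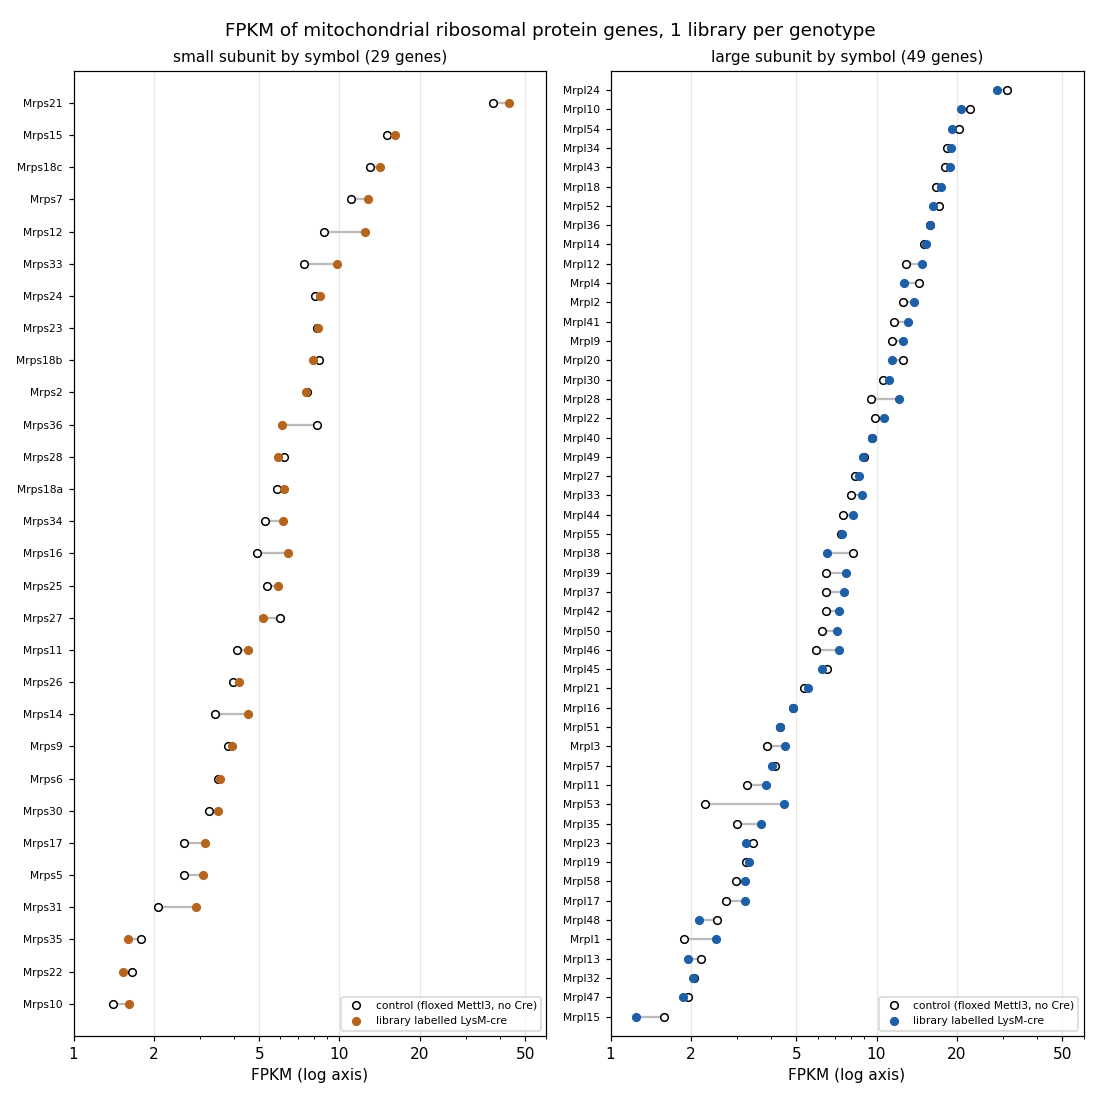
FPKM on a log axis of each small-subunit gene (left, 29 genes) and each large-subunit gene (right, 49 genes), sorted by mean level, with open points for the control and filled points for the LysM-cre-labelled library. The order of levels was nearly the same in both libraries, and the widest gap on the log axis belongs to Mrpl53, at 2.26 and 4.49 FPKM.

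By symbol, small-subunit genes stood a little further above the control than large-subunit genes. Of the 29 Mrps genes, 22 were higher and 7 lower (median log2 ratio 0.09). Of the 49 Mrpl genes, 30 were higher and 19 lower (median 0.05). The difference of the medians, large minus small, was −0.04. Summed over genes, the CPM ratio was 1.09 (95% interval 1.07 to 1.11) for the small subunit and 1.03 (95% interval 1.02 to 1.04) for the large. The interval lay above 1 for 14 Mrps genes (48.3%) and 17 Mrpl genes (34.7%, near the background of 30.9%). It lay below 1 for 3 (10.3%) and 8 (16.3%, background 30.3%). Of the 8 genes past 1.2-fold in the higher direction, 5 were Mrps genes (Mrps12, Mrps33, Mrps16, Mrps31 and Mrps14) and 3 were Mrpl genes (Mrpl53, Mrpl28 and Mrpl1). With Mrps30 and Mrps18a counted in the large subunit and Mrps36 left out, 20 of 26 small-subunit genes were higher (median 0.11) and 32 of 51 large-subunit genes (median 0.05). The 5 ribosomal protein genes under other symbols, described further on, narrow this gap when added. The summed CPM ratio by structure was 1.10 (1.08 to 1.12) for the small subunit without them and 1.04 (1.02 to 1.05) with its 4, beside 1.03 (1.02 to 1.04) for the large subunit both without and with its 1. Without Aurkaip1, the lowest of the 4, the small-subunit ratio was 1.08 (1.07 to 1.099), and with all of them the medians were 0.08 and 0.06. No test of the difference between subunits was possible, since all genes come from the same pair of libraries.

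**Figure D2:**
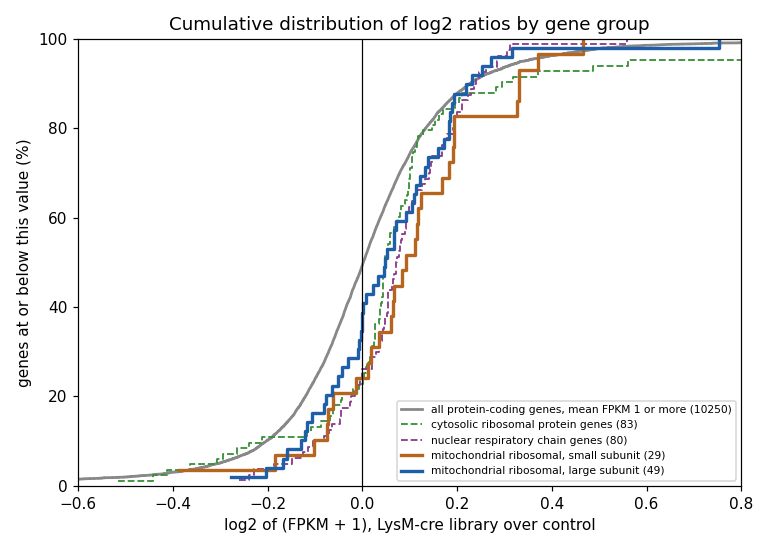
Share of genes (vertical axis, %) at or below each log2 ratio of FPKM + 1 (horizontal axis), for small-subunit (29) and large-subunit (49) genes, all protein-coding genes averaging at least 1 FPKM (10250), cytosolic ribosomal protein genes (83) and nuclear respiratory chain genes (80). The small-subunit line lies furthest to the right around its median of 0.09, and the line of all protein-coding genes crosses its midpoint at 0.00.

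Within the small subunit, Mrps genes of proteins with a bacterial relative and Mrps genes of mitochondria-specific proteins were not alike in their counts. Of the 16 with a bacterial relative, 14 were higher and 2 lower (median log2 ratio 0.12). An interval above 1 was found for 9 (56.25%, background 30.9%) and an interval below 1 for 0 (background 30.3%). Of the 10 mitochondria-specific ones, 6 were higher and 4 lower (median 0.04), with 4 intervals above 1 (40%) and 2 below (20%). With so few genes these shares are coarse. Aurkaip1, Chchd1, Dap3 and Ptcd3, small-subunit genes under other symbols described further on, were not sorted into either class here. All had a log2 ratio below 0, for Dap3 and Ptcd3 within counting error. The class values therefore describe genes with Mrps symbols only, and class ratios with these genes added were not computed. The 10 mitochondria-specific genes summed to 9864 counts in the control and 10377 in the LysM-cre-labelled library, while Aurkaip1 alone had 2549 and 1265. The small-subunit class values thus depend on where such genes are placed. In the large subunit, by structure, 19 of 30 genes with a bacterial relative (median 0.05) and 13 of 21 mitochondria-specific genes (median 0.07) were higher. The summed CPM ratio was 1.13 (1.11 to 1.16) for small-subunit genes with a bacterial relative, 1.05 (1.03 to 1.08) for the mitochondria-specific ones, and 1.03 (1.01 to 1.04) and 1.04 (1.02 to 1.06) for the same classes of the large subunit.

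Among decoding and head proteins of the small subunit, Mrps12 stood out in size. Its protein is the relative of bacterial S12, which lies at the decoding centre. Mrps12 (ENSMUSG00000045948, chromosome 7, 28739641 to 28741770, minus strand, mm10) had 8.74 FPKM in the control and 12.4 in the LysM-cre-labelled library, on 608 and 863 counts. The CPM ratio was 1.42 (95% interval 1.28 to 1.58), the highest of the small subunit, and no other row overlapped it. Mrps14 (chromosome 1, 160195215 to 160202170, plus strand), the relative of S14 in the head, stood at 3.42 and 4.54 FPKM on 744 and 986 counts (1.33, 1.21 to 1.46). Mrps7, whose bacterial relative starts the assembly of the head, stood at 11.1 and 12.8 FPKM on 1536 and 1772 counts (1.16, 1.08 to 1.24). These 3 genes were higher in the LysM-cre-labelled library beyond counting error. Mrps10, another head protein and the gene with the lowest small-subunit FPKM, stood at 1.40 and 1.62 FPKM on 762 and 876 counts (1.15, 1.04 to 1.27).

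Of the named body and platform genes of the small subunit with a bacterial relative, none was lower beyond counting error. Mrps16 (chromosome 14, 20389304 to 20393634, minus strand) stood at 4.88 and 6.40 FPKM on 939 and 1227 counts (CPM ratio 1.31, 95% interval 1.202 to 1.43). Mrps21, the small-subunit gene with the highest FPKM, stood at 37.7 and 43.3 on 1864 and 2134 counts (1.15, 1.08 to 1.22). Mrps15 stood at 15.1 and 16.2 FPKM on 1714 and 1830 counts (1.07, 1.001 to 1.14). Only Mrps16 of these lay past 1.2-fold. Mrps6, on 358 and 363 counts, and Mrps28, on 324 and 308 counts, had intervals that spanned 1.

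Mitochondria-specific genes of the small subunit went in both directions. Mrps33 (chromosome 6, 39801804 to 39810988, minus strand) stood at 7.33 and 9.78 FPKM on 819 and 1088 counts (1.33, 1.21 to 1.46). Mrps31 (chromosome 8, 22411361 to 22429665, plus strand) stood at 2.09 and 2.88 FPKM on 460 and 633 counts (1.38, 1.22 to 1.56). Mrps34 stood at 5.27 and 6.12 FPKM on 728 and 842 counts (1.16, 1.05 to 1.28). Lower were Mrps27, a protein with pentatricopeptide repeats (RNA-binding helical modules), at 5.98 and 5.14 FPKM (0.859, 0.777 to 0.951), and Mrps35 at 1.79 and 1.60 FPKM (0.893, 0.817 to 0.977). Mrps22 stood at 1.66 and 1.53 FPKM on 445 and 408 counts, a difference within counting error (0.919, 0.801 to 1.05).

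The Mrps18 paralogs, which descend from one bacterial protein and occupy different places in the ribosome, were level within counting error. In the classes above, Mrps18c was counted with a bacterial relative, whereas Mrps18a and Mrps18b were counted as mitochondria-specific. Mrps18c, the copy at the bacterial site, had 13.03 and 14.2 FPKM (CPM ratio 1.09, 95% interval 0.993 to 1.19). Mrps18b stood at 8.40 and 7.94 FPKM (0.946, 0.871 to 1.03). Mrps18a, whose protein lies in the large subunit, stood at 5.84 and 6.17 FPKM (1.05, 0.981 to 1.13). Mrps30, the other gene of this kind, stood at 3.23 and 3.48 FPKM (1.08, 1.002 to 1.16).

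Mrps36 had the lowest log2 ratio of all 78 genes. Its level was 8.24 FPKM in the control and 6.07 in the LysM-cre-labelled library on 703 and 517 counts (CPM ratio 0.737, 95% interval 0.656 to 0.827). Of its 3 pseudogene rows, Mrps36-ps1 (8 and 29 counts) and Mrps36-ps2 (8 and 33) went the other way, and Mrps36-ps3 had 0 counts in both libraries. The 3 rows held 16 counts in all in the control and 62 in the LysM-cre-labelled library. With these added to the parent gene the ratio was 0.807 (0.722 to 0.901). How reads that match several copies were assigned is not stated by the labels or notes, so the value is uncertain in size.

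**Figure D3:**
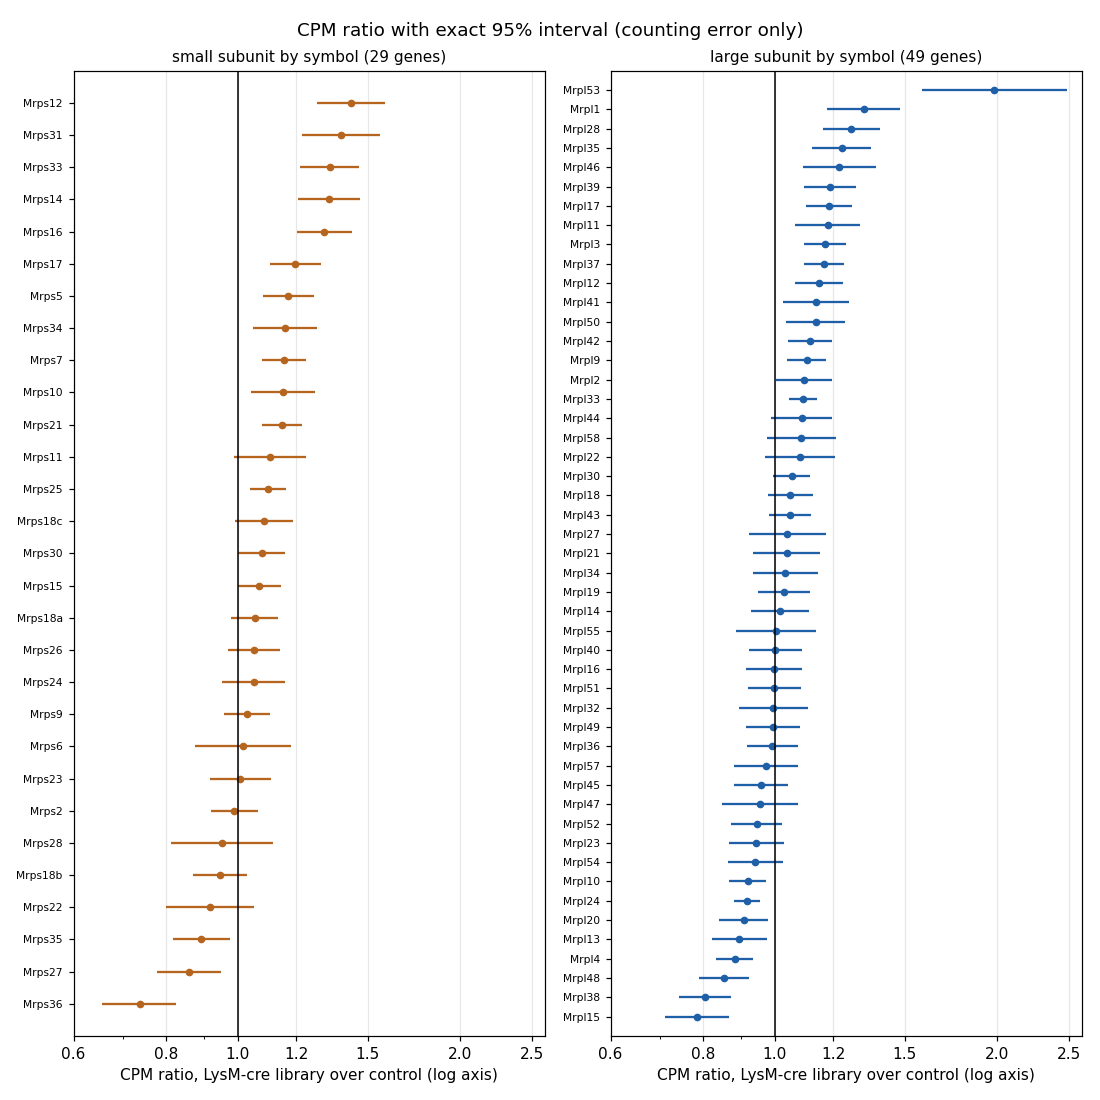
CPM ratio of the LysM-cre-labelled library over the control (points, log axis) with its exact 95% counting interval (lines) for each small-subunit (left) and large-subunit (right) gene, sorted by ratio. Of all 78 intervals, 31 lie above 1, 11 below 1 and 36 span it.

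In the large subunit, the highest ratio belonged to Mrpl53 and rested on few counts. Mrpl53 (ENSMUSG00000030037, chromosome 6, 83109040 to 83109939, plus strand) stood at 2.26 and 4.49 FPKM on 120 and 237 counts (CPM ratio 1.98, 95% interval 1.58 to 2.49), and was the only member past 1.5-fold in FPKM + 1 (background 1.53%), with 0 members past it in the lower direction (background 1.6%). It was also the member with the fewest counts. Its row lies wholly inside that of Gm42688, on the same strand, which held 965 and 879 counts. With both rows summed, 1085 and 1116 counts, the log2 ratio was 0.05 in place of 0.75. The value of Mrpl53 therefore depends on how reads were divided between these rows.

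Genes of the stalk, the part of the large subunit that recruits translation factors, were split. Mrpl12, the stalk protein itself, stood at 12.9 and 14.8 FPKM on 1317 and 1510 counts (CPM ratio 1.15, 95% interval 1.07 to 1.24). Mrpl11, at the stalk base, stood at 3.26 and 3.84 FPKM on 703 and 827 counts (1.18, 1.06 to 1.31). Mrpl10, which joins the stalk to the base, went the other way at 22.5 and 20.7 FPKM on 2570 and 2357 counts (0.919, 0.869 to 0.972). Each of these intervals excluded 1.

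Genes near the peptidyltransferase centre and the exit tunnel had no common direction either. Of 5 core genes (Mrpl2, Mrpl3, Mrpl4, Mrpl16 and Mrpl27), 3 were higher and 2 lower (median log2 ratio 0.05). Mrpl3 stood at 3.87 and 4.53 FPKM on 1727 and 2014 counts (CPM ratio 1.17, 95% interval 1.10 to 1.25), and Mrpl4 at 14.4 and 12.7 FPKM on 2523 and 2224 counts (0.883, 0.834 to 0.935). Of 6 genes at the rim of the exit tunnel, 2 were higher and 4 lower (median −0.05). Mrpl24, the large-subunit gene with the highest FPKM, stood at 30.9 and 28.4 on 4663 and 4269 counts (0.917, 0.880 to 0.956), while Mrpl47 stood at 1.96 and 1.87 FPKM on 580 and 553 counts (0.955, 0.849 to 1.08).

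Other large-subunit genes with a bacterial relative gave both the higher and the lower end. Mrpl28 (chromosome 17, 26123500 to 26126613, plus strand) stood at 9.54 and 12.1 FPKM on 883 and 1119 counts (1.27, 1.16 to 1.39), and Mrpl1 (chromosome 5, 96209493 to 96266727, plus strand) at 1.89 and 2.49 FPKM on 544 and 716 counts (1.32, 1.18 to 1.48). Both lay past 1.2-fold with no overlapping row. Mrpl15 stood at 1.58 and 1.24 FPKM on 899 and 704 counts (0.785, 0.710 to 0.867), the lowest CPM ratio of the large subunit. Because its FPKM is low, its log2 ratio of FPKM + 1 was only −0.20 and did not reach 1.2-fold on that scale. Mrpl20 stood at 12.6 and 11.4 FPKM (0.908, 0.841 to 0.980), and Mrpl13 at 2.18 and 1.96 FPKM (0.896, 0.823 to 0.975). Mrpl34 (18.4 and 19.1 FPKM) and Mrpl32 (2.05 and 2.05 FPKM) were level within counting error.

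Of the mitochondria-specific large-subunit genes, Mrpl38 was the one past 1.2-fold in the lower direction. Mrpl38 (chromosome 11, 116131817 to 116138868, minus strand) stood at 8.13 and 6.54 FPKM on 1388 and 1115 counts (CPM ratio 0.805, 95% interval 0.743 to 0.871). Mrpl48, which has a pseudogene row with 81 and 73 counts, stood at 2.52 and 2.15 FPKM (0.854, 0.790 to 0.924). Mrpl46, a protein of the central protuberance, was higher at 5.91 and 7.23 FPKM on 560 and 683 counts (1.22, 1.09 to 1.37). Mrpl58, a peptidyl-tRNA hydrolase that became part of the ribosome, stood at 2.95 and 3.21 FPKM (1.09, 0.975 to 1.21), and Mrpl54 at 20.3 and 19.2 FPKM (0.941, 0.865 to 1.02), both within counting error. Overlapping rows on the same strand were present for 11 of the 78 genes. Summing them moved the log2 ratio by over 0.1 for Mrpl53 alone and left those of Mrpl46 (0.21), Mrpl3 (0.16), Mrps34 (0.19), Mrpl33 (0.11), Mrps18c (0.10), Mrpl21 (0.04), Mrps6 (0.05), Mrpl51 (0.00), Mrps28 (−0.06) and Mrpl15 (−0.20) within that range.

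Levels of these genes differed far more among themselves than between the libraries. FPKM ran from 1.40 (Mrps10) to 37.7 (Mrps21) in the control and from 1.24 (Mrpl15) to 43.3 (Mrps21) in the LysM-cre-labelled library. Across the 78 genes, log2 FPKM in one library followed that in the other (Pearson r = 0.981, Spearman rho = 0.982, a description over genes that share the same gene lengths). Median FPKM was 5.34 in the control and 5.88 in the LysM-cre-labelled library for Mrps genes, and 7.38 and 7.56 for Mrpl genes. The ratio of large to small medians was 1.38 in the control and 1.28 in the LysM-cre-labelled library. This is smaller than the spread within a subunit, where the quartiles were 3.42 and 8.22 FPKM for Mrps and 3.42 and 12.6 FPKM for Mrpl genes in the control.

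The order of levels depended on the gene length used. In the deposited FPKM, the length implied by counts and FPKM was between 1.12 and 1.13 times the length of all annotated exons of a gene joined (GENCODE M21), for each of the 78 genes. Joined exons include retained introns and rare ends, and exceeded the principal transcript (the APPRIS choice in that annotation) by a median of 1.37 times and by more than 2 times for 20 genes. Mrpl33 was the extreme, with 7326 joined bases against 478 in the principal transcript. It ranked 28th of 78 by mean FPKM (8.41) and 1st by CPM per kilobase of principal transcript (145). Mrps10 moved from rank 77 to 39, Mrpl23 from 63 to 12 and Mrpl13 from 72 to 29, whereas Mrps21 (ranks 1 and 2) and Mrpl24 (ranks 2 and 3) stayed near the top. On the principal-transcript scale the control medians were 10.8 for Mrps and 14.9 for Mrpl genes, a ratio of 1.37. Reads from other isoforms are included in these counts, so this scale overstates genes whose other isoforms are abundant. CPM ratios between libraries do not depend on the length, whereas log2 ratios of FPKM + 1 are smaller for a gene with a longer joined length.

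**Figure D4:**
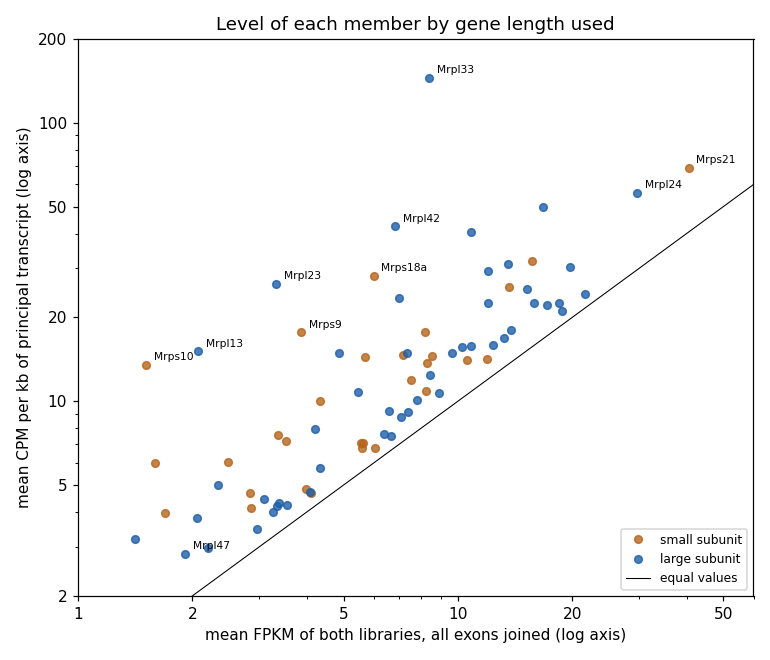
Mean level of each gene over both libraries per joined exon length (deposited FPKM, horizontal log axis) against CPM per kilobase of the principal transcript (vertical log axis), with small-subunit genes in brown and large-subunit genes in blue. Mrpl33 lies furthest above the line of equal values, at 8.41 FPKM and 145.

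The symbols stand for mitochondrial ribosomal protein, so the annotation terms given first follow from the choice by symbol. Position in the genome was not part of that choice. All 78 carry the annotation "mitochondrion" in the deposited table, against 7.92% of protein-coding rows. A term for the large mitochondrial subunit was attached to all 49 Mrpl genes and also to Mrps18a and Mrps30, and the small-subunit term to 27 of 29 Mrps genes and to Mrpl42. The genes were spread over 17 chromosomes, with at most 11 on one (chromosome 11). Of the 78, 32 (41.0%) had another protein-coding gene starting within 1000 bases in head-to-head orientation, against 2281 of 21807 protein-coding rows (10.5%). One such pair joined 2 members, Mrps11 and Mrpl46, whose rows overlap at their starts. Mrps11 stood at 4.11 and 4.55 FPKM, and Mrpl46 was higher as given above.

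Head-to-head partners and members often had log2 ratios of opposite sign, many of them near 0. In 24 pairs the partner was no member and had a mean of 1 FPKM or more. In these, 7 pairs had the same sign of the log2 ratio in both genes and 17 had opposite signs, and 11 partners were higher and 13 lower (median −0.03). Both counting intervals excluded 1 with opposite signs for Mrps7 with Gga3 and Mrpl48 with Rab6a. They did so with the same sign for Mrps27 with Ptcd2 and Mrpl50 with Zfp189. The share of same signs over all head-to-head protein-coding pairs was not computed. Mrps12 starts beside Sars2, the mitochondrial seryl-tRNA synthetase gene, on the other strand. Sars2 stood at 3.23 and 3.04 FPKM on 717 and 672 counts (CPM ratio 0.939), whereas Mrps12 was higher. Gga3, a Golgi sorting adaptor gene beside Mrps7, stood at 11.8 and 7.55 FPKM, the lowest log2 ratio of these partners (−0.59). Apba3, beside Mrpl54, stood at 3.44 and 4.65 FPKM (0.35), Zfp189, beside Mrpl50, at 1.33 and 1.78 (0.26), and Rab6a, beside Mrpl48, at 11.8 and 13.8 (0.21). The rows of some pairs overlap, and how strand entered the counts is not stated by the labels or notes.

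**Figure D5:**
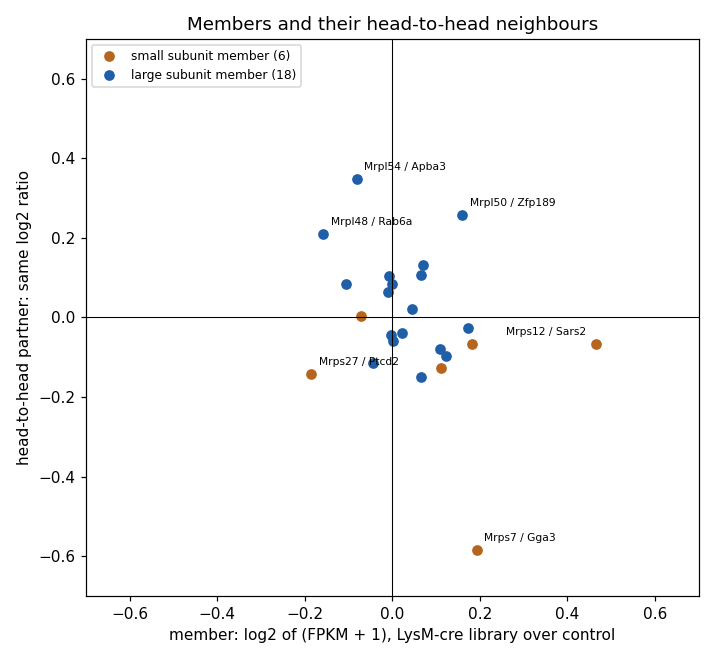
Log2 ratio of FPKM + 1 for each member (horizontal axis) and its head-to-head partner (vertical axis) in the 24 pairs with a partner that was no member and had a mean of 1 FPKM or more, coloured by subunit. Opposite signs were found in 17 pairs, among them Mrps7 with Gga3 and Mrps12 with Sars2, where Sars2 was level within counting error.

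Promoter sequences (250 bases before to 50 after the start, RefSeq, GRCm38.p6) were found for 69 of the 78 genes. Motifs of factors known for nuclear genes of mitochondrial proteins were searched on both strands. The NRF1 site was present in 13 of 69 genes (18.8%, against 7.17% of 17492 protein-coding genes with a promoter). CCGGAAG, a site of ETS factors such as GABPA, was present in 26 (37.7%, against 12.9%), and AAGATGGCG, a site of YY1, in 8 (11.6%, against 2.14%). The CREB site TGACGTCA (2 genes, 2.90% against 2.54%), the E-box CACGTG (5 genes, 7.25% against 8.91%) and CCAAT (27 genes, 39.1% against 42.3%) were near the share of all promoters. CCAAT, a site of NF-Y, was added to the search after the stretches below had been read. The median log2 ratios of genes with and without a motif were 0.07 and 0.09 for NRF1, 0.07 and 0.11 for ETS 0.09 and 0.08 for YY1, and 0.12 and 0.05 for CCAAT. A match is a description of the sequence and not a bound site.

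The stretches upstream of 5 starts are shown, at most 170 bases each and shorter where an annotated exon of any gene lies nearer. Motif matches are in capitals, and each stretch reads 5′ to 3′ on the strand of the gene. Matches elsewhere in the searched promoters are not shown, among them an ETS match for Mrps12 and a YY1 match for Mrps27. Mrps12 is shown as the small-subunit gene with the highest ratio, and its stretch lies in the gap of 222 bases between its start and that of Sars2 (chr7:28741822-28741991, minus strand). It holds 4 CCAAT matches. Mrps36 is shown as the member with the lowest ratio (chr13:100744660-100744829, minus strand), with 1 CCAAT match on the opposite strand, where it reads ATTGG. Mrpl45 (chr11:97315546-97315715, plus strand) holds 2 NRF1 matches, both on the opposite strand, and Mrpl58 (chr11:115403582-115403751, plus strand) and Mrps27 (chr13:99344706-99344785, plus strand) hold 1 ETS match each, that of Mrps27 on the opposite strand.
Mrps12: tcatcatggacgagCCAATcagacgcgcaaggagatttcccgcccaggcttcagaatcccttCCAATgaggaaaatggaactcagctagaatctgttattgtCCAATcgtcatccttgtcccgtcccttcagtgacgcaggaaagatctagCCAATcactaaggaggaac
Mrps36: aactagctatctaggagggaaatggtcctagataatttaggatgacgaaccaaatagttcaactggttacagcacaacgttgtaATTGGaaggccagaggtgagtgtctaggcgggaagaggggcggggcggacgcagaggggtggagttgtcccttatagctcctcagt
Mrpl45: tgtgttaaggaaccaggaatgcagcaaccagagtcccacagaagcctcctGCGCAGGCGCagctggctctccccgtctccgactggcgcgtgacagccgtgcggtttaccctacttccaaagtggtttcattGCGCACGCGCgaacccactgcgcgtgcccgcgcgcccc
Mrpl58: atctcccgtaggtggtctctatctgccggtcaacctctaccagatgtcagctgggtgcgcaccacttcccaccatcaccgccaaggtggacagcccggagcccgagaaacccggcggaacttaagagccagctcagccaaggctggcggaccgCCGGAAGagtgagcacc
Mrps27: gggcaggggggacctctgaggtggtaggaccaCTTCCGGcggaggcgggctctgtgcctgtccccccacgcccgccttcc

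Of 5 ribosomal protein genes that carry other symbols, 1 was higher and 4 were lower, with a median log2 ratio of −0.02. Aurkaip1, a small-subunit protein also known for binding Aurora kinase A, stood at 21.6 and 10.7 FPKM on 2549 and 1265 counts (CPM ratio 0.497, 95% interval 0.464 to 0.532), with no overlapping row. Its log2 ratio of −0.95 was larger in size than that of any of the 78 members. Chchd1 stood at 14.0 and 12.3 FPKM (0.883, 0.799 to 0.975) and Gadd45gip1, in the large subunit, at 7.68 and 8.94 FPKM (1.16, 1.08 to 1.26). Dap3, a GTP-binding protein of the small subunit, at 4.72 and 4.63 FPKM, and Ptcd3, with pentatricopeptide repeats, at 3.77 and 3.73 FPKM, were level within counting error. The ribosomal RNAs of the mitochondrion, which poly(A) selection captures only in part, stood at 331 and 406 FPKM for mt-Rnr1 (CPM ratio 1.22, 1.202 to 1.25) and at 342 and 447 FPKM for mt-Rnr2 (1.31, 1.29 to 1.33).

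Genes that build the mitochondrial ribosome differed in both directions. Of 24 assembly and ribosomal RNA modification genes averaging at least 1 FPKM (28 listed), 13 were higher and 11 lower (median log2 ratio 0.07). In FPKM + 1, 4 of them (16.7%) lay past 1.2-fold higher (background 7.84%) and 0 past 1.2-fold lower (background 6.44%). By CPM ratio, 7 lay past 1.2-fold higher (background 11.0% on that scale) and 1 past 1.2-fold lower (background 9.32%). The latter was Malsu1, a large-subunit assembly factor with 1.95 and 1.55 FPKM on 495 and 392 counts (0.793, 0.693 to 0.908), named after its value was seen. Mterf4, which guides the ribosomal RNA methyltransferase Nsun4, stood at 1.48 and 2.93 FPKM on 524 and 1029 counts (1.97, 1.77 to 2.19). Mrm3, a ribosomal RNA 2′-O-methyltransferase, stood at 1.34 and 2.08 FPKM (1.54, 1.27 to 1.87). Dhx30 stood at 3.85 and 5.11 FPKM (1.33, 1.26 to 1.39) and Ddx28 at 4.64 and 5.92 FPKM (1.27, 1.15 to 1.41), both RNA helicases. Of 15 translation factor genes kept (17 listed, 1 not matched), 6 were higher and 9 lower (median −0.05). Slirp, which stabilises mitochondrial messenger RNA, stood at 5.65 and 7.90 FPKM (1.40, 1.296 to 1.51). The elongation factor Tsfm stood at 3.06 and 2.23 FPKM (0.731, 0.645 to 0.829), the methionyl-tRNA formyltransferase Mtfmt at 4.30 and 3.57 (0.831, 0.759 to 0.910), and the release factor Mtrf1l at 1.37 and 1.79 (1.31, 1.12 to 1.52).

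Other ribosomal and respiratory gene groups had medians between 0.05 and 0.13. The median log2 ratio was 0.05 for 83 cytosolic ribosomal protein genes (64 higher, 19 lower) and 0.07 for 80 nuclear respiratory chain genes (59 higher, 21 lower). The 13 protein genes of the mitochondrial chromosome, whose messages this ribosome translates, had 10 higher and 3 lower, with a median of 0.13. Whether the mitochondrial ribosomal genes differ from these groups was not tested.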

How the data were processed

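Poly(A) RNA was sequenced in paired ends, per the labels' protocols, from 1 library of each genotype. The deposited count values per gene row are whole numbers and were not normalized. The deposited FPKM values were scaled for depth and length by the authors. The table gives a small filler value at a count of 0, which was read as 0 FPKM. The submitters' processing notes name HISAT2 2.0.4, StringTie 1.3.4d, cutadapt 1.9, DESeq2 and edgeR, and the build mm10, without roles or settings. Left out were 8 columns belonging to 4 libraries without a label.

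From these, log2 ratios were computed with a pseudocount of 1 FPKM, against a background of protein-coding genes averaging at least 1 FPKM. CPM ratios carry exact 95% Clopper-Pearson intervals, whose half-width among members had a median of 0.12 on the log2 scale. TMM factors, from edgeR 4.0.16 in R 4.3.3, were 1.00058 and 0.999419. Other steps used pandas 2.3.3, numpy 2.4.6, matplotlib 3.10.9 and scipy 1.17.1 under Python 3.11.15. Only the CPM ratio and its interval were tested on simulated data, with counts drawn independently. The members and lists were chosen with earlier results of these data known. Named with values were the 8 highest and 8 lowest members by log2 ratio, the 4 highest and 4 lowest levels of each subunit, members overlapped on the same strand, and members with a stated role. Of other lists and of head-to-head partners, up to 4 with the largest absolute ratio were named. Mrps11, Mrpl23, Mrpl42, Mrpl45, Mrpl50, Ptcd2 and Sars2 were named after their values were seen. One listed gene had no row under its symbol.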

Additional observations from a re-analysis of the deposited data

How the results depend on the processing

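No paired analysis was possible because each genotype had 1 library, and for the same reason no library could be left out. Under 12 alternatives each, the median log2 ratio stayed above 0 for the small subunit (0.05 to 0.17), the large subunit (0.03 to 0.06) and all members (0.04 to 0.10). The large minus small difference stayed below 0 (−0.11 to −0.01). The alternatives were not independent checks. Dropping the filter changed nothing, since no member was under 1 FPKM, and all count-based scalings gave the same difference (−0.05). With a pseudocount of 5 FPKM, 2 members lay past 1.2-fold higher and 0 past 1.2-fold lower, beside 8 and 2 as reported. The background then was 3.16% and 2.85%. Restricting to an average of at least 5 FPKM left 49 members, of which 4 lay past 1.2-fold higher (background 5.92%). With subunits by structure, 1 lay past 1.2-fold lower, because Mrps36 was left out. The ratio of large to small median FPKM in the control, 1.38 as reported, was 1.26 at an average of at least 5 FPKM, 1.23 by structure and 1.205 without overlapping rows. No scaling alternative moved the protein-coding median by more than 0.02. None of 43 named members changed sign under 7 settings, an outcome largely fixed in advance. A change of pseudocount cannot change a sign, the scaling settings barely shifted the ratios, and summing touches only members with an overlapping row. Summing overlapping rows moved Mrpl53 from 0.75 to 0.05. Adding pseudogene rows, adding ribosomal proteins under other symbols, leaving out Mrpl53 and the principal transcript lengths were chosen after seeing the data. Counting error is widest for Mrpl53, the member with the fewest counts.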

Other observations

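Genes that supply mitochondrial translation with charged tRNA stood near the control level, with single exceptions. Of 20 mitochondrial aminoacyl-tRNA synthetase and related genes averaging at least 1 FPKM (22 listed), 11 were higher and 9 lower in the LysM-cre-labelled library, with a median log2 ratio of 0.02. Lars2, the mitochondrial leucyl-tRNA synthetase, stood at 0.879 and 1.87 FPKM on 655 and 1383 counts (CPM ratio 2.12, 95% interval 1.93 to 2.33). Yars2, for tyrosine, stood at 1.34 and 2.40 FPKM on 285 and 506 counts (1.78, 1.54 to 2.06), and Gatb, a subunit of the enzyme that makes glutaminyl-tRNA, at 1.67 and 2.41 FPKM (1.44, 1.28 to 1.62). Wars2, for tryptophan, was lower at 1.99 and 1.55 FPKM (0.778, 0.699 to 0.865).

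Genes of mitochondrial transcription and its nuclear regulators had 7 higher and 8 lower of 15 kept (17 listed), with a median log2 ratio of −0.04. Past 1.2-fold lower in FPKM + 1 lay 2 of them (13.3%, background 6.44%), and 0 lay past 1.2-fold higher (background 7.84%). Max, the partner of Myc, stood at 36.6 and 23.4 FPKM on 8811 and 5606 counts (0.637, 0.616 to 0.659). The coactivator gene Ppargc1b stood at 1.45 and 1.04 FPKM (0.715, 0.611 to 0.837) and the termination factor gene Mterf1a at 2.04 and 1.54 FPKM (0.757, 0.653 to 0.876). The transcription factor gene Tfb2m was higher at 4.90 and 5.67 FPKM (1.16, 1.06 to 1.27).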
